A study of Homo sapiens with 6 samples.

Results

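The end joining, excision and mismatch repair genes described here are 44 named genes of 58735 in the count table, listed by symbol for their roles, without a measured value in the rule. They comprise 8 genes of end joining, 5 of mismatch repair, 10 DNA glycosylases, 5 base excision genes that act after the glycosylase, 11 nucleotide excision repair genes, 4 translesion synthesis polymerase genes and MGMT, and each matched exactly 1 row of the files. They were measured by RNA sequencing in MDA-MB-231 cells, a human triple-negative breast cancer line of wild type genotype by its label, kept in culture medium with vehicle (3 samples) or with 100 mg/l of SCH, an extract of the herb Salvia chinensis Benth (3 samples), for 24 h. The comparison asks how repair gene transcripts differ after an extract that the study examined as a cause of DNA damage, and it rests on 1 cell line, 1 dose and 1 time. Total counts per library were 20291379, 18714240 and 18334857 for vehicle and 16836369, 17979434 and 18414924 for SCH.

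The labelled cell line was checked against its markers. VIM, CD44, CAV1 and AXL, which this line is known to express, were read at between 41.2 and 300 FPKM in every library. The FPKM values are counts scaled by exonic length and a factor per library. The oestrogen receptor gene ESR1 had 1 to 4 counts and the progesterone receptor gene PGR 0 or 1, whereas ERBB2 was read at 6.76, 6.81 and 6.44 FPKM with vehicle and 8.86, 7.95 and 7.84 FPKM with SCH and rose by 0.29 on the log2 scale (SE 0.059, edgeR adjusted p = 0.000164). Of 7 epithelial and luminal genes, the cadherin gene CDH1 was near 0, with 1 to 6 counts, and the other 6 were expressed and passed the edgeR threshold. The keratin genes KRT8, KRT18 and KRT19 had vehicle means of 128, 129 and 53.2 FPKM and log2 fold changes of -0.23, -0.80 and 0.17. EPCAM (-0.52) and GATA3 (-0.79) fell and FOXA1 rose (1.16), from vehicle means of 6.53, 3.84 and 0.995 FPKM. Of the leukocyte genes, CD3E had 0 or 1 count. PTPRC had 39, 37 and 34 counts with vehicle and 4, 9 and 3 with SCH, so it was low in every library and fell further, with a log2 fold change of -2.75 (SE 0.37, edgeR adjusted p = 8.8e-07). Of the line's markers, VIM, CAV1 and AXL fell after SCH (log2 fold changes -0.56, -1.17 and -0.84), and CD44 was at 0.03.

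Double-strand breaks can be rejoined without a template by end joining, in which the Ku heterodimer binds the ends and XRCC4 with LIG4 seals them. Damaged bases are cut out by glycosylases and replaced over a short patch, bulky lesions are removed within an oligonucleotide by nucleotide excision repair, and mispaired bases left by replication are removed by mismatch repair. Lesions that remain when a fork arrives can be bypassed by translesion polymerases.

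Of the 44 genes, 42 passed the filter on low counts and 25 of these (59.5%) changed after SCH by the edgeR quasi-likelihood test with Benjamini-Hochberg adjustment over all 14736 genes tested, of which 58.7% changed. Of the 42 genes, 11 rose (26.2%, against 29.3% of all genes tested) and 14 fell (33.3%, against 29.4%). Under scaling by library size alone the balance turned, with 14 that rose and 10 that fell, and under upper quartile scaling 8 rose and 17 fell. These shares lie near the background, so the count of changed genes says nothing particular about repair. The changes were modest in size: 6 of the 42 (14.3%) changed with an absolute log2 fold change of at least 0.5, against 26.8% of all genes, and the median absolute log2 fold change was 0.249 against 0.311. The median signed log2 fold change was -0.062, with -0.00345 over all genes, and it was 0.041 when counts were scaled by library size alone, which moved the median of all genes to 0.0993. The range ran from -0.87 for NTHL1 to 0.80 for POLB. In these bulk libraries, fewer cells holding a transcript and less of it per cell cannot be told apart. The plot of log2 fold changes by role shows genes that rose beside genes that fell in every role except mismatch repair, where none rose, and translesion synthesis, where none fell.

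**Figure D1:**
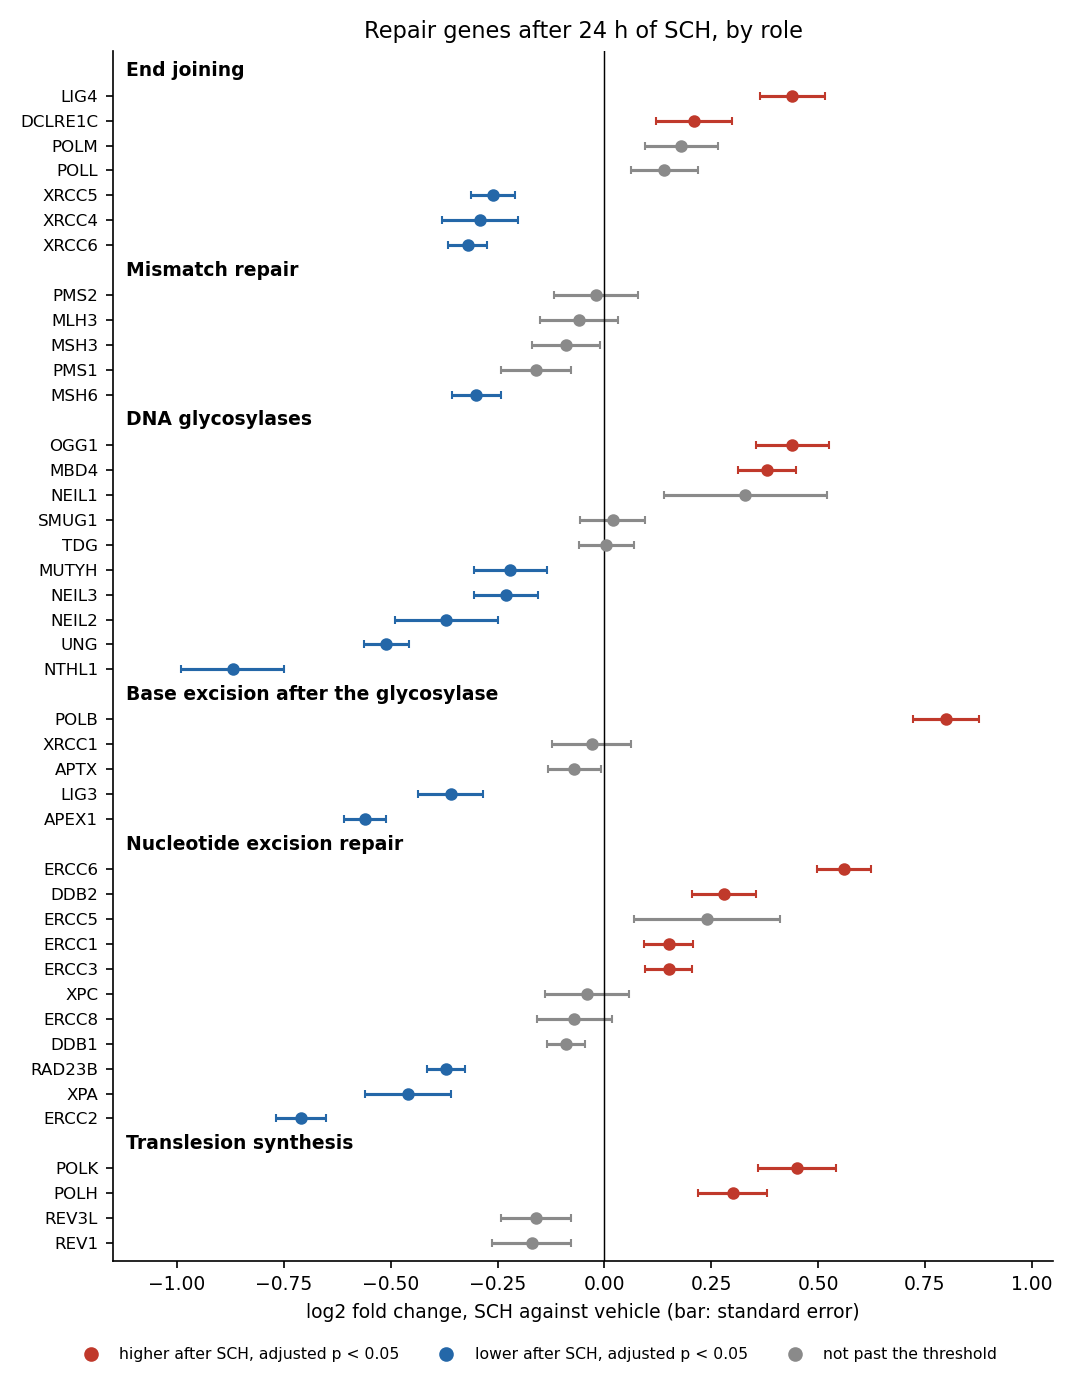
Log2 fold change of the 42 tested repair genes (x axis, SCH against vehicle), grouped by role on the y axis, with points for the edgeR estimate and bars for its standard error. Genes that rose (red, 11), fell (blue, 14) or did not pass the threshold (grey, 17) occur side by side within end joining, the glycosylases, base excision and nucleotide excision repair.

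Promoter sequence is shown for 6 of the changed genes so that the opposite responses can be set beside the bases upstream of each RefSeq start. They are the 3 genes that fell most and the 3 that rose most among those for which 120 bases free of annotated exons could be shown next to the start, a choice made after the values were seen. POLB and NEIL2 could not be chosen because no promoter was found for them. Sequences are from RefSeq on GRCh38.p14, printed 5′ to 3′ on the gene's strand, with capitals on matches, on either strand, to GGGCGG (the SP1 box), CCAAT (NF-Y), CACGTG (an E-box) or the NRF1 motif. The stretches are chr12:109097454-109097573 (+) for UNG, chr9:97697358-97697477 (-) for XPA, chr17:34980374-34980493 (+) for LIG3, chr11:47214334-47214453 (+) for DDB2, chr3:9749824-9749943 (+) for OGG1 and chr10:49539122-49539241 (-) for ERCC6. The RefSeq start of ERCC6 lies inside the span that the count table gives the gene, so its stretch is downstream of the outermost annotated start, and the other 5 stretches lie outside their gene's span. The first 3 belong to genes that fell and the last 3 to genes that rose.
UNG: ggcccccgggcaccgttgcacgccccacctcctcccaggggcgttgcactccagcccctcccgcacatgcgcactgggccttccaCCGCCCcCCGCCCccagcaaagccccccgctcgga
XPA: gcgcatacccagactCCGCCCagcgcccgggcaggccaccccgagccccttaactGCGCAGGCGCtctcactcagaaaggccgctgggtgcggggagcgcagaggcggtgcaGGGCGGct
LIG3: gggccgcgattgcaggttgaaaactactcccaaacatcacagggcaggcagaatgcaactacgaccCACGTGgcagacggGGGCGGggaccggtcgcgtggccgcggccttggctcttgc
DDB2: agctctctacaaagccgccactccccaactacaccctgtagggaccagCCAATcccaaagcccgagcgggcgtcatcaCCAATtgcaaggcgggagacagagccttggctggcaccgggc
OGG1: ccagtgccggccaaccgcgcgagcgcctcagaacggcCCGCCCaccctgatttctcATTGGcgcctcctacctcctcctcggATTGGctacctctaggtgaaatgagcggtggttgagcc
ERCC6: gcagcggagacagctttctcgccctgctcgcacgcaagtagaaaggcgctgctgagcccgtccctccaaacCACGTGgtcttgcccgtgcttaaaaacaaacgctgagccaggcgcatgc

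Promoters were found for 40 of the 44 genes, and none was found for XRCC5, SMUG1, NEIL2 and POLB. In the 250 bases before the start, GGGCGG on either strand was present in 5 of 10 promoters of genes that rose, 10 of 12 of genes that fell and 12 of 16 of tested genes that did not pass the threshold, against 42.3% of 27305 promoters. CCAAT was present in 4 of 10, 7 of 12 and 6 of 16, against 33% of all promoters. CACGTG was present in 1 of 10, 3 of 12 and 2 of 16 (6.49% of all), and the NRF1 motif in 1 of 10, 4 of 12 and 3 of 16 (5.53% of all). The cell cycle elements searched were the E2F letters TTTCCCGC, TTTGGCGC, TTTCGCGC and TTTGCCGC, present in 0 of 10, 0 of 12 and 3 of 16 (2.79% of all), and the CHR letters TTTGAA and TTCGAA, present in 0 of 10, 1 of 12 and 1 of 16 (14.6% of all). The 27305 promoters are all those in the reference and were not limited to expressed genes, so these shares are no matched background. Motifs that share bases were counted separately, and these matches describe letters only.

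In end joining, both Ku genes and XRCC4 fell while LIG4 and DCLRE1C rose. These were 5 of 7 tested genes (71.4%, against 58.7% of all genes). XRCC6 (ENSG00000196419, chr22:41621119-41664048, GRCh38), which encodes the Ku70 subunit and was the most abundant of the 44 genes, was read at 196, 200 and 193 FPKM in the vehicle samples and at 153, 157 and 164 FPKM after SCH. Every SCH sample lay below every vehicle sample. XRCC6 fell by 0.32 on the log2 scale (SE 0.046, edgeR adjusted p = 2.73e-06, n = 3 per group). XRCC5 (chr2:216107464-216206303), encoding the Ku80 subunit, was read at 83.7, 80.7 and 86.1 FPKM with vehicle and 65.2, 70.6 and 74.1 FPKM with SCH. The groups were again separate, and its log2 fold change was -0.26 (SE 0.051, edgeR adjusted p = 0.000129).

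XRCC4 (chr5:83077498-83353787), the scaffold that holds the end joining ligase, was read at 8.08, 7.11 and 7.99 FPKM with vehicle and 5.99, 6.12 and 6.88 FPKM with SCH. The highest SCH sample stayed just under the lowest vehicle sample, and the log2 fold change was -0.29 (SE 0.089, edgeR adjusted p = 0.00689). Scaled by library size alone, XRCC4 was at -0.19 with an edgeR adjusted p of 0.0707. LIG4 (chr13:108207439-108218368), the ligase that XRCC4 binds, went the other way, from 5.39, 5.88 and 6.55 FPKM to 7.76, 8.36 and 8.11 FPKM. All SCH samples were above all vehicle samples, and LIG4 rose by 0.44 on the log2 scale (SE 0.077, edgeR adjusted p = 3.56e-05).

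DCLRE1C, which encodes the Artemis nuclease that trims ends, rose by 0.21 on the log2 scale (SE 0.089, edgeR adjusted p = 0.0411). That call was lost without vehicle 1 (adjusted p = 0.158), vehicle 2 (0.132), SCH 1 (0.0598) or SCH 3 (0.106), in DESeq2 (0.0737), in limma on log2(FPKM + 1) (0.0736) and with upper quartile scaling (0.0841). The gap-filling polymerase genes POLL and POLM were at 0.14 (edgeR adjusted p = 0.125) and 0.18 (edgeR adjusted p = 0.0841), with overlapping groups. POLL passed without vehicle 2 (edgeR adjusted p = 0.0496), and POLM without vehicle 1 (0.0376) or SCH 3 (0.0421). Under scaling by library size alone both passed, POLL at 0.245 (edgeR adjusted p = 0.00941) and POLM at 0.279 (0.00784). NHEJ1, the XLF gene that stimulates the ligase, had 3, 0 and 6 counts with vehicle and 8, 5 and 3 with SCH and was not tested. Of its exonic bases 65.4% lie in the annotated exons of AC068946.1, so reads there may not have been assigned to NHEJ1.

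Of 11 end joining genes outside the 44, 10 were tested. Of these 1 rose (10%, against 29.3% of all genes) and 4 fell (40%, against 29.4%). TP53BP1, which protects ends from resection, rose by 0.38 (SE 0.063, edgeR adjusted p = 1.48e-05), and PRKDC, the catalytic subunit of the DNA-dependent protein kinase that Ku recruits, was at -0.34 (SE 0.056, edgeR adjusted p = 1.81e-05). SHLD1, a shieldin subunit that acts below TP53BP1, was read at 1.22, 0.886 and 1.44 FPKM with vehicle and 0.985, 0.459 and 0.478 FPKM with SCH. The groups overlapped, and its log2 fold change of -0.90 (SE 0.3, edgeR adjusted p = 0.0139) lost the call without vehicle 3 (0.0722), SCH 2 (0.0742) or SCH 3 (0.0756). PAXX, an XRCC4 paralogue, and SHLD2 also fell (-0.22 and -0.21), and both lost the call under scaling by library size alone (edgeR adjusted p = 0.0684 and 0.19). For SHLD2 the edgeR adjusted p was 0.0762 without vehicle 3 and 0.072 without SCH 1. TP53BP1 shares 28.7% of its exonic bases with other genes, mainly TUBGCP4.

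Of the 5 mismatch repair genes 1 (20%) changed by the edgeR test, against 58.7% of all genes, and it fell. Their median absolute log2 fold change was 0.091, and no difference from the other roles was tested. MSH6 (chr2:47695530-47810101), which recognises single mispairs, was read at 12.5, 11.7 and 13.8 FPKM with vehicle and 10.2, 10.6 and 10.4 FPKM with SCH. The SCH samples sat close together below all vehicle samples, and the log2 fold change was -0.30 (SE 0.057, edgeR adjusted p = 0.000103). MSH6 shares 16.2% of its exonic bases with other genes, mainly FBXO11. MSH3, which recognises larger loops and competes with MSH6 for their common partner, was at -0.09 (SE 0.079, edgeR adjusted p = 0.338). The MutL genes PMS1, MLH3 and PMS2 were at -0.16, -0.06 and -0.02, and the groups of PMS1 did not overlap although its edgeR adjusted p was 0.0949.

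Of 7 downstream genes of mismatch repair, 4 rose and 2 fell (85.7% changed, against 58.7% of all genes), with a median absolute log2 fold change of 0.225 against 0.311 over all genes, and no difference was tested. EXO1, the exonuclease that removes the mispaired strand, was read at 15.8, 15.4 and 15.7 FPKM with vehicle and at 21, 20.6 and 20.9 FPKM with SCH. The groups were far apart relative to their spread, and EXO1 rose by 0.41 on the log2 scale (SE 0.054, edgeR adjusted p = 7.7e-07). RFC1, the large subunit of the clamp loader, rose by 0.50 (SE 0.06, edgeR adjusted p = 1.89e-07), while the smaller subunit gene RFC2 was at -0.26 (SE 0.054, edgeR adjusted p = 0.00021).

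**Figure D2:**
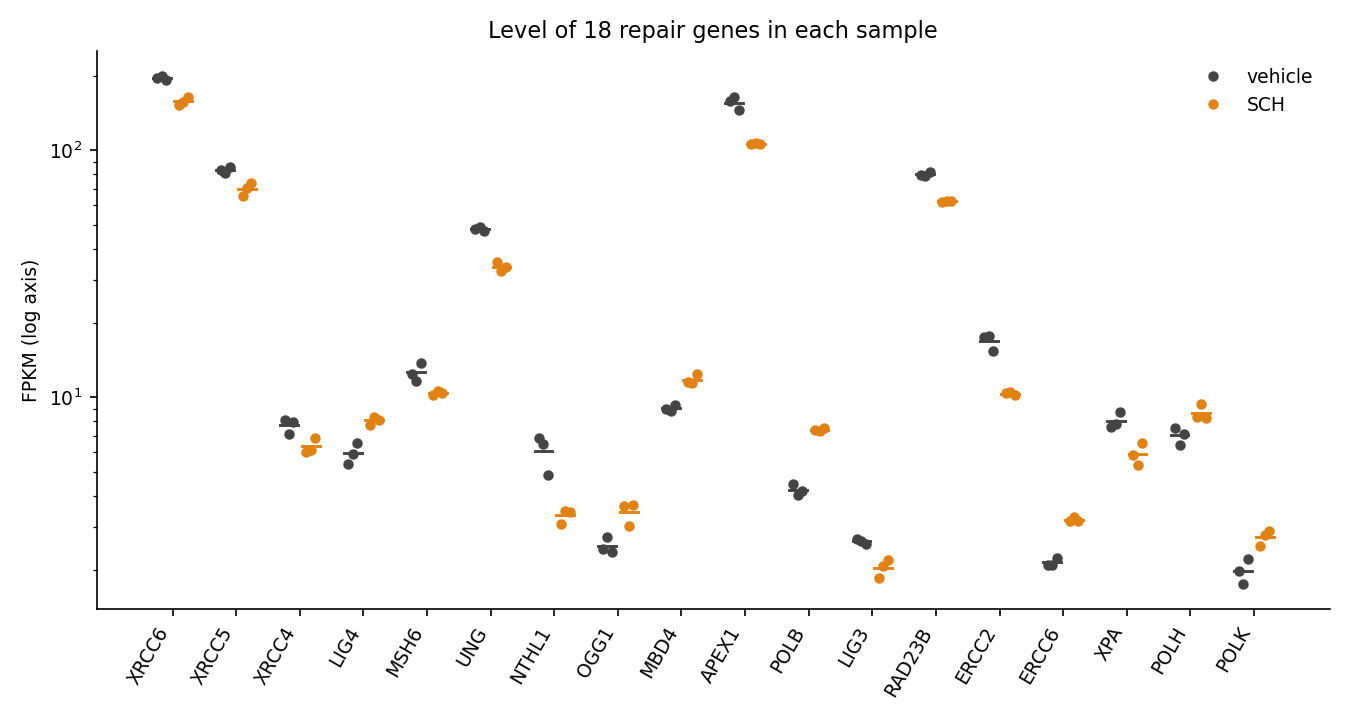
FPKM (y axis, log scale) of 18 repair genes in each of the 3 vehicle (dark) and 3 SCH (orange) samples, with a short line at each group mean. The 18 genes were chosen from those past the threshold with separate groups, so the lack of overlap follows from the choice. Of all tested genes 62.4% had separate groups. The 4 most abundant genes (XRCC6, APEX1, XRCC5 and RAD23B) were lower after SCH.

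Among the 10 DNA glycosylase genes, 2 rose (20%, against 29.3% of all genes) and 5 fell (50%, against 29.4%). The other 3 did not pass the threshold, and no difference from all genes was tested. UNG (chr12:109097574-109110992), whose promoter stretch is shown above and which removes uracil from DNA, was the most abundant glycosylase transcript, at 48.2, 49.1 and 47.4 FPKM with vehicle and 35.2, 32.6 and 33.9 FPKM with SCH. The groups were widely separated, with a log2 fold change of -0.51 (SE 0.052, edgeR adjusted p = 1.25e-08). NTHL1 (chr16:2039815-2047866), which removes oxidised pyrimidines, was read at 6.83, 6.49 and 4.87 FPKM with vehicle and 3.08, 3.47 and 3.43 FPKM with SCH. Vehicle 3 was the lowest of its group yet still above every SCH sample. NTHL1 had the most negative log2 fold change of the 42 tested genes, -0.87 (SE 0.12, edgeR adjusted p = 1.7e-06), and 16.5% of its exonic bases lie in other genes, mainly TSC2.

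OGG1 (chr3:9749944-9788219), which removes oxidised guanine, was read at 2.44, 2.73 and 2.37 FPKM with vehicle and 3.63, 3.01 and 3.66 FPKM with SCH. All SCH samples were higher, and OGG1 rose by 0.44 (SE 0.086, edgeR adjusted p = 0.000108), although 29% of its exonic bases are shared, mainly with CAMK1. MBD4 (chr3:129430944-129440179), which removes thymine and uracil opposite guanine at methylated sites, was read at 8.96, 8.83 and 9.33 FPKM with vehicle and 11.5, 11.4 and 12.4 FPKM with SCH. The groups were separate, and MBD4 rose by 0.38 (SE 0.068, edgeR adjusted p = 4.81e-05).

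MUTYH, which removes adenine paired with oxidised guanine, was at -0.22 (SE 0.085, edgeR adjusted p = 0.0329), and its call was lost without vehicle 1 (0.195), SCH 1 (0.0578), SCH 2 (0.0509) or SCH 3 (0.146), in DESeq2 (0.077), with no count filter (0.0989) and under scaling by library size alone (0.261). The glycosylases NEIL2 and NEIL3, which act on oxidised bases in open or single-stranded DNA, were at -0.37 (SE 0.12, edgeR adjusted p = 0.0101) and -0.23 (SE 0.075, edgeR adjusted p = 0.0107). NEIL2 lost its call without SCH 3 (edgeR adjusted p = 0.0683) and NEIL3 without SCH 1 (0.0874), and both lost it under scaling by library size alone (0.0564 and 0.146). SMUG1, another uracil glycosylase, and TDG, which removes thymine and oxidised methylcytosine, were at 0.02 (SE 0.076) and 0.0047 (SE 0.064). NEIL1 was low, at 50 to 80 counts per library, and its log2 fold change was 0.33 (SE 0.19, edgeR adjusted p = 0.132). Of the exonic bases of NEIL1 30.5% are shared, mainly with MAN2C1, so its level is uncertain.

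Cell cycle transcripts moved in the same libraries. Of 13 S phase genes 2 rose and 8 fell (15.4% and 61.5%, against 29.3% and 29.4% of all genes). Their median log2 fold change was -0.330. Their summed levels were 524, 536 and 504 FPKM with vehicle and 396, 391 and 397 FPKM with SCH. All 11 of the 11 G2/M genes examined fell (100%, against 29.4% of all genes). Their median was -0.835, with sums of 781, 782 and 783 FPKM with vehicle and 359, 370 and 368 FPKM with SCH. The most abundant gene of the 24 with vehicle was CDC20, at 221, 223 and 205 FPKM with vehicle and 77.6, 76.6 and 76.2 FPKM with SCH, where MCM7 was higher at 87, 85.4 and 85.5 FPKM, and none of the 24 was at 0. Their part in the lower UNG, MSH6 and NEIL3, which are known to be expressed more in dividing cells, was not tested.

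In the steps after the glycosylase, POLB rose while APEX1 and LIG3 fell, 3 of 5 genes (60%, against 58.7% of all genes). APEX1 (chr14:20455191-20457772), the endonuclease that cuts at the abasic site, was read at 158, 165 and 146 FPKM with vehicle and 106, 107 and 106 FPKM with SCH. The SCH samples were nearly equal to each other and lay far below the vehicle samples, with a log2 fold change of -0.56 (SE 0.05, edgeR adjusted p = 1.43e-09). POLB, the polymerase that fills the gap and trims the sugar residue, was read at 4.47, 4.01 and 4.19 FPKM with vehicle and 7.4, 7.29 and 7.52 FPKM with SCH. No other tested gene of the 42 had a higher log2 fold change than POLB, at 0.80 (SE 0.077, edgeR adjusted p = 5.39e-09), a 1.74-fold higher level. LIG3 (chr17:34980494-35009743), a ligase of nuclear and mitochondrial DNA, was read at 2.68, 2.62 and 2.55 FPKM with vehicle and 1.86, 2.07 and 2.19 FPKM with SCH. The groups were separate, with a log2 fold change of -0.36 (SE 0.075, edgeR adjusted p = 0.000216), and 30.5% of the exonic bases of LIG3 are shared, mainly with RFFL. XRCC1, the scaffold to which LIG3 binds, was at -0.03 (SE 0.092) and APTX, which clears aborted ligation products, at -0.07 (SE 0.063). Of the exonic bases of XRCC1 24% are shared, mainly with L34079.3. Of 8 further base excision genes none rose by the edgeR test (against 29.3% of all genes) and 3 fell (37.5%, against 29.4%). TDP1 fell by 0.75 (SE 0.062, edgeR adjusted p = 3.34e-10), HMGB1 by 0.44 and LIG1 by 0.20 on the log2 scale. LIG1 lost its call without SCH 2 (edgeR adjusted p = 0.0541) and under scaling by library size alone (0.165).

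Nucleotide excision repair held 4 genes that rose and 3 that fell among 11 (36.4% and 27.3%, against 29.3% and 29.4% of all genes). In damage recognition, RAD23B (chr9:107283137-107332194), which stabilises XPC, was read at 79.5, 79 and 82.2 FPKM with vehicle and 61.6, 62.5 and 62.4 FPKM with SCH. The groups were tightly separated, with a log2 fold change of -0.37 (SE 0.045, edgeR adjusted p = 2.11e-07). XPC itself, which senses the distorted helix, was at -0.04 (SE 0.098), and 30.4% of its exonic bases are shared, mainly with AC093495.1. DDB2, which finds ultraviolet lesions in chromatin, rose by 0.28 (SE 0.075, edgeR adjusted p = 0.0028), and its partner DDB1 was at -0.09 (SE 0.045, edgeR adjusted p = 0.1). ERCC6 (chr10:49455368-49539538), the CSB protein that acts on stalled RNA polymerase, was read at 2.1, 2.1 and 2.24 FPKM with vehicle and 3.15, 3.27 and 3.15 FPKM with SCH. Its groups did not approach each other, and ERCC6 rose by 0.56 (SE 0.063, edgeR adjusted p = 5.84e-08). ERCC8, the CSA protein of the same route, was at -0.07 (SE 0.087), and 30% of its exonic bases are shared, mainly with GNL3LP1.

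For the opening and cutting of the helix, ERCC2 (chr19:45349837-45370918), a helicase of the TFIIH complex, was read at 17.6, 17.8 and 15.4 FPKM with vehicle and 10.4, 10.5 and 10.2 FPKM with SCH. The groups were widely separated, with a log2 fold change of -0.71 (SE 0.059, edgeR adjusted p = 4.23e-10). ERCC3, the other TFIIH helicase, rose by 0.15 (SE 0.056, edgeR adjusted p = 0.0279). Its call was lost without vehicle 3 (0.0773), SCH 1 (0.0559) or SCH 3 (0.0627) and with upper quartile scaling (0.0808). XPA (chr9:97674909-97697357), which verifies the lesion, was read at 7.6, 7.82 and 8.77 FPKM with vehicle and 5.85, 5.32 and 6.52 FPKM with SCH. The groups did not overlap, and XPA was at -0.46 (SE 0.1, edgeR adjusted p = 0.000669). ERCC1, the partner of the nuclease that cuts on the upstream side of the lesion, rose by 0.15 (SE 0.057, edgeR adjusted p = 0.0251), a call lost without vehicle 1 (0.0503), vehicle 3 (0.0657), SCH 1 (0.0627) or SCH 2 (0.0712) and with upper quartile scaling (0.073), and 28.6% of its exonic bases are shared, mainly with CD3EAP. ERCC5, which cuts on the downstream side, was listed at 0.355 to 0.488 FPKM and was at 0.24 (SE 0.17), but 63.2% of its exonic bases belong also to the read-through gene BIVM-ERCC5, so its level is uncertain.

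Across the 10 TFIIH subunit genes, 9 were tested, 1 rose (ERCC3) and 4 fell (11.1% and 44.4%, against 29.3% and 29.4% of all genes). In all 55.6% changed, near the 58.7% of all genes. GTF2H4, with 0 to 13 counts, was not tested. Of the exonic bases of GTF2H4 79% lie in other genes, mainly VARS2, so its level and its part in the sum over the complex are uncertain. The 4 were ERCC2, the cyclin gene CCNH (-0.70, SE 0.079, edgeR adjusted p = 6.43e-08, with 22.3% of its exonic bases shared, mainly with RASA1), GTF2H3 (-0.33) and GTF2H1 (-0.18). GTF2H1 lost its call without vehicle 3 (edgeR adjusted p = 0.0506) or SCH 2 (0.0606) and under scaling by library size alone (0.275). The summed level of the complex was 105, 101 and 101 FPKM with vehicle and 88.3, 88.9 and 90.5 FPKM with SCH. Of all 19 further nucleotide excision repair genes 18 were tested. Of these 4 rose (22.2%, against 29.3% of all genes) and 8 fell (44.4%, against 29.4%). Those that fell included UVSSA (-0.40), which stabilises ERCC6, and CUL4A (-0.39), the cullin of the DDB1 ligase.

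For translesion synthesis, both the POLH and POLK genes rose (50% of 4, against 29.3% of all genes), and neither of the others passed the threshold. POLH (chr6:43576150-43615660), which copies past ultraviolet dimers, was read at 7.52, 6.44 and 7.13 FPKM with vehicle and 8.3, 9.45 and 8.26 FPKM with SCH. The groups were separate, and POLH rose by 0.30 (SE 0.08, edgeR adjusted p = 0.00292). POLK (chr5:75511756-75601144), which copies past bulky guanine adducts, was read at 1.98, 1.76 and 2.22 FPKM with vehicle and 2.5, 2.77 and 2.89 FPKM with SCH. The SCH samples were all higher, and POLK rose by 0.45 (SE 0.091, edgeR adjusted p = 0.000176). REV1, the scaffold polymerase, was at -0.17 (edgeR adjusted p = 0.118) and REV3L, the catalytic subunit that extends from lesions, at -0.16 (edgeR adjusted p = 0.0934). Without SCH 2, REV1 was at -0.246 (edgeR adjusted p = 0.0452) and REV3L at -0.245 (0.0253). Of 11 other genes of lesion bypass 6 rose (54.5%, against 29.3% of all genes) and 3 fell (27.3%, against 29.4%), and no difference was tested. WDR48 (0.54), MAD2L2 (0.47) and UBE2N (-0.42) had the largest changes among them, and 39.5% of the exonic bases of UBE2N are shared, mainly with NUDT4.

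MGMT (chr10:129467184-129768007), which removes alkyl groups from guanine directly, had 0 counts in all 6 libraries. A count of 0 allows a level of up to 3 counts, or 0.148 to 0.178 CPM (counts scaled by library size), so MGMT was not detectable at this depth. The other direct reversal genes ALKBH2 and ALKBH3, which repair alkylated adenine and cytosine, were both tested and both fell, by 0.63 (SE 0.096, edgeR adjusted p = 6.02e-06) and 0.27 (SE 0.077, edgeR adjusted p = 0.00467) on the log2 scale. ALKBH3 was at -0.165 with an edgeR adjusted p of 0.0685 when scaled by library size alone.

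For 12 pairs of genes that work as partners, the ratio of their FPKM was taken within each sample, and the groups did not overlap in 8. The share of gene pairs in general that would separate was not computed, and 62.4% of single genes did, so the count is given as a description. The ERCC2 to ERCC3 ratio was 1.77, 1.86 and 1.73 with vehicle and 0.974, 1.02 and 0.956 with SCH, so ERCC2 had the higher FPKM with vehicle and the FPKM were nearly equal with SCH. The XRCC4 to LIG4 ratio was 1.5, 1.21 and 1.22 with vehicle and 0.773, 0.731 and 0.849 with SCH, a reversal of which partner had the higher FPKM. Which partner is higher depends on the exonic lengths used, 2676 bases for XRCC4 and 4387 for LIG4. In raw counts LIG4 was already higher with vehicle, at 477, 479 and 529 against 436, 353 and 394 for XRCC4. The ERCC6 to ERCC8 ratio was 0.633, 0.685 and 0.71 with vehicle and 1.07, 1.1 and 0.979 with SCH. These 3 pairs had the largest log2 differences of the ratio, -0.86, -0.73 and 0.63. DDB2 to DDB1 (0.37), XPC to RAD23B (0.34), LIG3 to XRCC1 (-0.34), MSH6 to MSH3 (-0.20) and PMS2 to PMS1 (0.15) were also separate between groups, the last 2 by a narrow gap. For the 8 pairs the exact two-sided permutation test gave p = 0.1, the smallest that 3 against 3 samples allow, so none passed 0.05.

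The groups overlapped for the Ku pair, with ratios of 0.427, 0.404 and 0.445 with vehicle and 0.427, 0.448 and 0.451 with SCH (log2 difference 0.06, SD of the samples 0.059). POLL to POLM, REV1 to REV3L and POLH to POLK also overlapped between groups, with log2 differences of -0.04, -0.01 and -0.15 beside sample SDs of 0.13 for each pair. The exact two-sided permutation p was 0.3 for the Ku pair and for POLH to POLK, 0.9 for POLL to POLM and 1 for REV1 to REV3L, which does not show that the ratios were equal.

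**Figure D3:**
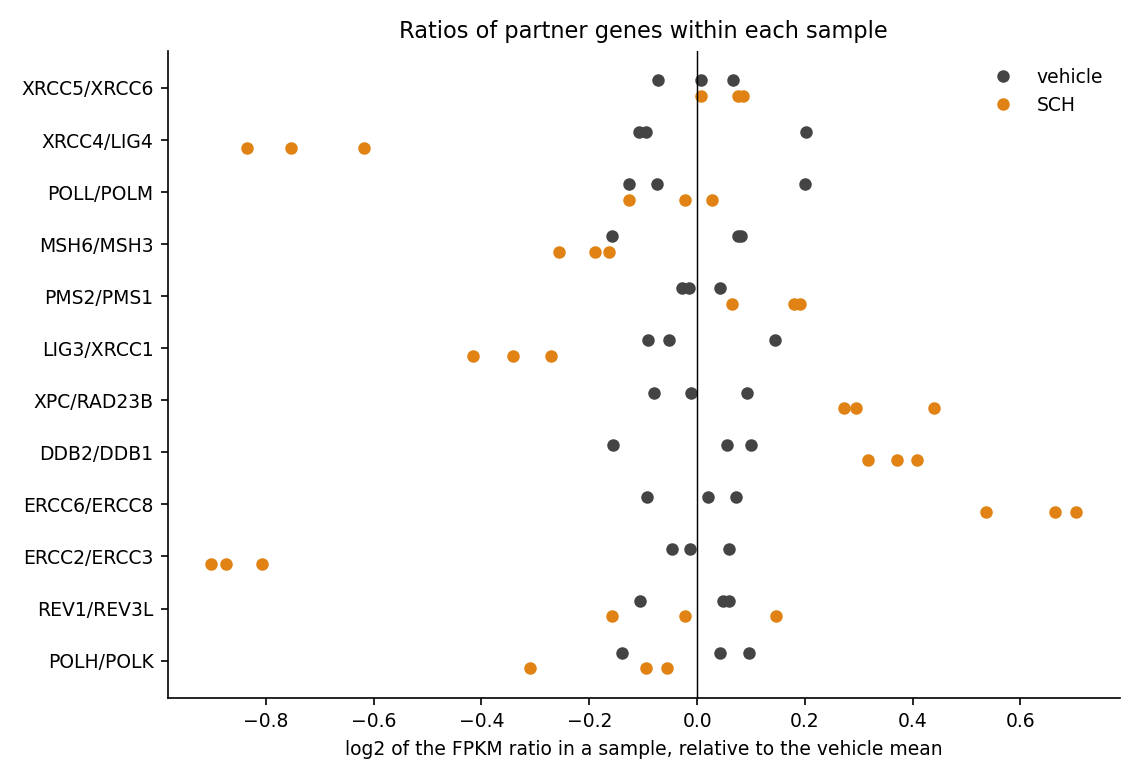
Log2 of the FPKM ratio of 12 partner pairs in each sample, relative to the mean of the vehicle samples (x axis), with 3 vehicle (dark) and 3 SCH (orange) points per pair. ERCC2/ERCC3 and XRCC4/LIG4 lie farthest to the left and ERCC6/ERCC8 farthest to the right, while XRCC5/XRCC6, POLL/POLM, REV1/REV3L and POLH/POLK overlap.

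The 4 most abundant of the 44 genes, XRCC6, APEX1, XRCC5 and RAD23B, all fell. They made up 64.1, 64.8 and 63.9% of the summed FPKM of the 44 genes with vehicle and 59.2, 59.6 and 60.1% with SCH. The sum over the 44 genes was 807, 810 and 795 FPKM with vehicle and 652, 667 and 677 FPKM with SCH, and the sum without these 4 genes was 290, 286 and 287 FPKM against 266, 269 and 270 FPKM. All summed levels depend on the FPKM factor per library. Relative to scaling by total counts it was 1.006, 1.008 and 0.9955 with vehicle and 0.9408, 0.937 and 0.9369 with SCH. The small fall of the second sum therefore cannot be told apart from this scaling. Among tested genes with a mean of at least 30 FPKM, 5 of 6 repair genes fell and 0 rose, where 49.4% of 1664 such genes in the whole table fell and 23.1% rose. Under 30 FPKM, 11 of 36 repair genes rose and 9 fell, near the 30.1% and 26.9% of 13072 genes. The 5 were XRCC6, XRCC5, APEX1, RAD23B and UNG, and DDB1 was the gene that did not pass. By gene span, the 4 tested repair genes of at least 100 kb (XRCC4, MSH3, MSH6 and REV3L) had a median log2 fold change of -0.23, against -0.11 over the 2649 tested genes of that span, 40.7% of which fell. Of these 4 genes 2 fell and 0 rose. MSH6, 1 of the 2, is in this class only by its outermost annotated start at chr2:47695530. Its RefSeq start lies inside that span, just after 47783144, so its place in the class is uncertain. Under 20 kb, 2 of 10 tested repair genes rose and 5 fell (28.1% and 26.6% of all genes of that span), with a median of -0.04. From 20 to 50 kb, 5 of 16 rose and 5 fell (32.3% and 27.5% of all), and from 50 to 100 kb 4 of 12 rose and 2 fell (33.4% and 26.9% of all).

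**Figure D4:**
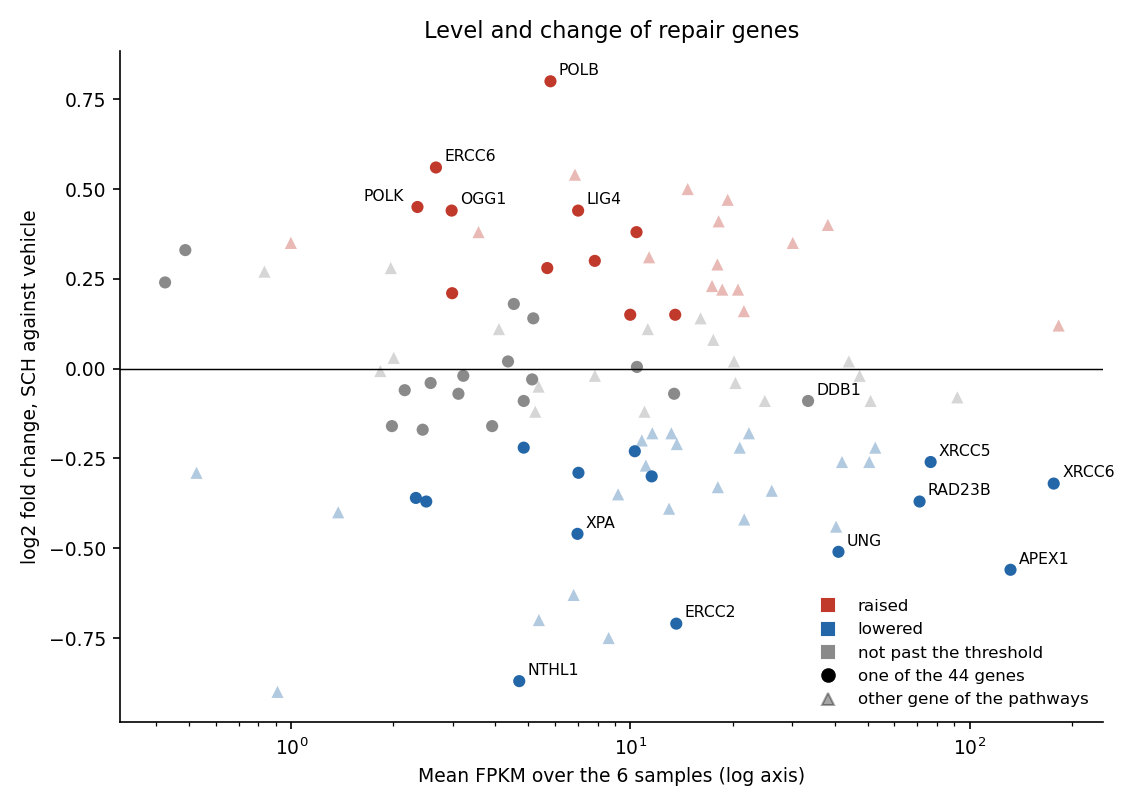
Log2 fold change (y axis) against mean FPKM over the 6 samples (x axis, log scale) for the 42 tested repair genes (circles) and 56 other tested genes of the same pathways (triangles), coloured by call. The named circles on the right, from UNG to XRCC6, lie below 0, while POLB, ERCC6, LIG4, OGG1 and POLK rose from low levels.

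Over the other 58 pathway genes, which were listed by pathway, 56 were tested, 15 rose (26.8%, against 29.3% of all genes) and 22 fell (39.3%, against 29.4%), so that 66.1% changed against 58.7%. Their median log2 fold change was -0.046, and under scaling by library size alone the balance turned, with 22 that rose and 13 that fell. Groups of the 42 tested repair genes did not overlap in 27 cases (64.3%), against 62.4% of all genes.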

How the data were processed

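RNA was purified with poly-T beads and sequenced on an Illumina HiSeq platform. The submitters' processing notes name CASAVA 1.8, HISAT2 2.0.5, featureCounts 1.5.0-p3, DESeq2 1.20.0 and the build GRCh38. The deposited count table holds raw read counts per gene made by the authors, and the FPKM files deposited by the authors hold these counts scaled by exonic length and a factor per library. Start and end of all 143 listed genes equalled GENCODE 29. Whether counting used strand is not given in the sources used here, so reads of overlapping genes may not be separable. The labels give RPMI-1640 as the medium and the methods of the study give DMEM.

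Groups and replicate numbers came from the labels, which state biological repeats, and no pair of libraries was a copy. The 3 SCH samples were compared with the 3 vehicle samples in edgeR 4.0.16 (R 4.3.3; TMM scaling, filterByExpr, quasi-likelihood F test, Benjamini-Hochberg threshold 0.05 over all 14736 tested genes). The common biological coefficient of variation was 5.17%. Standard errors (SE) were derived from the F statistic, as the size of the log2 change over the root of F. Fits were tested on simulated data. Alternatives were RLE, upper quartile or library size scaling, other count filters (none, or at least 10 counts), DESeq2 1.42.0, limma 3.58.1 on log2(FPKM + 1) and log2(FPKM + 0.1), the replicate block and leaving out each sample. The floor for a count of 0 was 3 counts and covers counting error only. Ratios were compared by exact permutation tests.

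The genes and lists were chosen with earlier results of these data known. Values in every sample are given, for each role, for the gene with the highest vehicle FPKM and up to 4 genes with the largest absolute log2 fold change past the threshold with separate groups, for MGMT and for genes under the filter. Of the other pathway genes, up to 3 per role with the largest change past the threshold are named, and PAXX, SHLD2, GTF2H1, GTF2H3, PCNA, the remaining RFC genes and the genes that act on PCNA ubiquitin were chosen after their values were seen. A further leukocyte marker is not reported here.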

Additional observations from a re-analysis of the deposited data

How the results depend on the processing

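Over 15 alternatives, 8 of 11 genes that rose and 10 of 14 that fell kept their direction and their call, 10 of 17 not past the threshold stayed short of it, and no called gene changed direction. The genes that gained a call under at least 1 alternative were POLL, POLM and NEIL1 (library size alone, edgeR adjusted p = 0.00941, 0.00784 and 0.0481), PMS1, DDB1 and REV3L (upper quartile, 0.048, 0.0252 and 0.0455) and, with a sample left out, REV1, REV3L, POLL and POLM. The calls lost under at least 1 alternative were DCLRE1C, ERCC3 and ERCC1 (raised) and XRCC4, MUTYH, NEIL2 and NEIL3 (lowered). Scaling by library size alone moved most: 14 repair genes rose and 10 fell, 22 of the other pathway genes rose in place of 15 and 13 fell in place of 22, the median log2 fold change of the 42 genes was 0.041 and of all genes 0.0993, and 62.6% of calls over all genes were rises in place of 49.9%. With upper quartile scaling 8 repair genes rose and 17 fell. Leaving out each sample in turn gave 8 to 11 repair genes that rose, 12 to 15 that fell, 7809 to 8489 changed genes in the whole table and 8 or 9 partner pairs with separate groups, the last added after seeing the data. Same-numbered samples did not deviate together (r = 0.0464, -0.0222 and 0.022), and not every sample correlated best with its own number, so the numbers were not taken to pair the samples. With the replicate block 8705 genes changed, with 11 repair genes raised and 14 lowered. Low counts limit NEIL1, ERCC5, NHEJ1 and MGMT, and 3 samples per group limit every test of a ratio.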

Other observations

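Among genes around the sliding clamp, which lies outside the 44 genes but serves mismatch repair, base excision and lesion bypass, the subunits of the clamp loader moved in opposite directions. PCNA, the clamp, was read at 174, 177 and 173 FPKM with vehicle and 188, 189 and 196 FPKM with SCH. The groups did not overlap, and PCNA rose by 0.12 on the log2 scale (SE 0.046, edgeR adjusted p = 0.0287), a call lost without vehicle 1 (0.0941) or SCH 3 (0.0821) and with upper quartile scaling (0.108). RFC1 and RFC5 rose (0.50 and 0.22), RFC2 and RFC3 fell (-0.26 and -0.22), and RFC4 was at -0.09 (edgeR adjusted p = 0.157). RFC3 lost its call under scaling by library size alone (-0.118, edgeR adjusted p = 0.0947).

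Genes that attach ubiquitin to PCNA, the signal for lesion bypass, were likewise divided. UBE2A and UBE2B, which encode the conjugating enzymes that work with RAD18, rose by 0.40 (SE 0.056, edgeR adjusted p = 2.01e-06) and 0.22 (SE 0.059, edgeR adjusted p = 0.00249). RAD18, the ligase itself, was read at 10.6, 9.46 and 10.7 FPKM with vehicle and 7.4, 8.39 and 8.49 FPKM with SCH, with separate groups and a log2 fold change of -0.35 (SE 0.066, edgeR adjusted p = 8.77e-05). Of the ligases that extend the ubiquitin chain, HLTF rose by 0.31 and SHPRH was at -0.29 (SE 0.12, edgeR adjusted p = 0.0372). The SHPRH call was lost in DESeq2 (adjusted p = 0.0842), under scaling by library size alone (0.175), and without vehicle 3 (0.202), SCH 1 (0.0923), SCH 2 (0.058) or SCH 3 (0.0911). UBE2N, the conjugating enzyme of that step, was at -0.42 (SE 0.052, edgeR adjusted p = 3.23e-07), and 39.5% of its exonic bases are shared, mainly with NUDT4. Of the enzymes that remove the mark, the USP1 gene was at -0.02 (edgeR adjusted p = 0.723), and WDR48, its activating partner, rose from 5.16, 5.62 and 5.95 FPKM to 7.44, 8.71 and 8.28 FPKM. The groups of WDR48 were separate, with a log2 fold change of 0.54 (SE 0.07, edgeR adjusted p = 5.79e-07).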
